A study of Mus musculus with 12 samples.

Results

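Growth medium (GM) and differentiation medium (DM) were compared in C2C12 cells that had all received acetoacetate (AA) for 12 h. C2C12 is an established mouse cell line of skeletal myoblasts, and AA is one of the ketone bodies that tissues take up and oxidise. The comparison took the read counts of the 3 DM-AA libraries against those of the 3 GM-AA libraries, 6 of the 12 libraries of the series. The remaining 6, GM-PBS and DM-PBS, held cells that received phosphate-buffered saline for the same time. They entered the model that estimates the spread between libraries and served to set the switch of medium without AA beside the switch with it. The series was stated to look for genes responsive to AA in proliferating and in differentiating myoblasts. The labels give neither the composition of the media, nor the dose or salt of AA, nor the time that the cells had spent in DM before AA was added.

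Myoblasts kept in a medium rich in growth factors divide and hold the muscle programme back, in part through Id proteins, which bind the partners of the myogenic factors, and through cyclin D1 and ERK signalling. When growth factors are withdrawn, myogenin is switched on, the cells leave the cell cycle, and genes of the contractile apparatus, the calcium release machinery and membrane fusion follow over the next days. The myogenic regulatory factors MyoD and Myf5 are already present in dividing myoblasts, whereas myogenin marks the commitment to differentiate.

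The table listed 23446 genes, of which 12230 had enough reads to be tested. GM-AA libraries held 8484417 to 8801619 reads assigned to genes and DM-AA libraries 8027518 to 8245402. Log2 levels of the tested genes correlated at 0.994 within each group and at 0.962 to 0.968 between the groups. The muscle markers Myod1, Myf5, Des, Cdh15, Chrna1 and Itga7 were all present in both groups. Of 58 marker genes of adipocytes, bone and cartilage, epithelium, immune cells, endothelium and neural cells, 43 lay below 1 CPM (counts per 1e6 reads) in both groups and 11 had no read in any of the 12 libraries. Summed over each list, the levels in the GM-AA and DM-AA libraries were 39.3 to 42.8 and 36.0 to 39.7 CPM for adipocytes, 82.6 to 87.4 and 43.4 to 44.7 for epithelium, 16.8 to 19.3 and 13.8 to 18.8 for immune cells and 1.53 to 2.43 and 1.09 to 1.25 for endothelium. The sums were 2513 to 2752 and 1773 to 2004 CPM for bone and cartilage and 289.5 to 304 and 272 to 281 CPM for neural cells, and their part in the results was not tested. Krt19, a keratin, made up most of the epithelial sum and fell from 71.2 ± 3.85 to 29.4 ± 0.565 CPM. Spp1, a matrix phosphoprotein that many cell types secrete, made up most of the bone and cartilage sum. It fell from 2418 ± 115 to 1667 ± 117 CPM (SD, n = 3 here and below). Of the 5 tested bone and cartilage markers, 2 were higher in DM-AA, both at least 2-fold, and 2 lower, by the threshold given below. Over all tested genes, 25.9% were higher and 26.3% lower. Tubb3, a neuronal tubulin, had means of 291 to 268 CPM over the 2 groups. Gapdh, Ppia, Rpl10 and 14 of 72 ribosomal protein genes were listed at 0 reads in these libraries although every cell uses them. A gene listed at 0 therefore cannot be read as silent, and that holds for Dmd and Hmgcs1, which the lists below also contain.

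Levels are given in CPM after scaling and compare a gene between libraries, not one gene with another. Fold changes are DM-AA over GM-AA on the log2 scale, where 1 stands for 2-fold higher and -1 for 2-fold lower, with the standard error of the fit after the ± sign. A gene "rose" or "fell" where edgeR's quasi-likelihood test gave an adjusted p under 0.05 over all tested genes, that is, at a false discovery rate (FDR) of 5%. Whether the 3 libraries of each group stem from separate dishes is not in the labels. The p-values thus measure the spread between these libraries, which may be technical. In RNA from whole dishes, fewer cells of a kind and less of an RNA in each cell cannot be told apart.

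The change of medium moved a large part of the transcriptome by small amounts. Of the 12230 genes, 6389 (52.2%) passed the threshold, 3171 (25.9%) higher and 3218 (26.3%) lower in DM-AA. The levels of the 2 groups did not overlap for 7026 genes (57.4%). Among the genes past the threshold, 4394 (68.8%) differed by less than 1.5-fold. At least 2-fold changes were found for 442 higher (3.61%) and 363 lower genes (2.97%). The median log2 fold change over all tested genes was 0.0058 and the median size 0.23. Counts within a gene list are read against these shares.

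**Figure D1:**
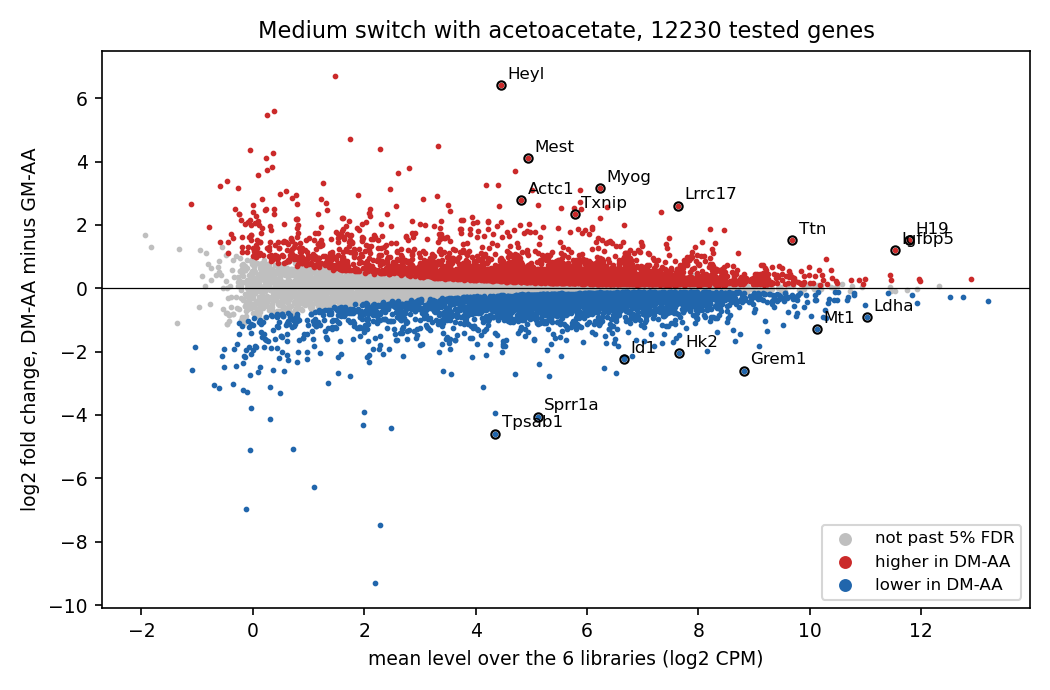
Log2 fold change of DM-AA over GM-AA (vertical axis) against the mean level over the 6 libraries in log2 CPM (horizontal axis) for the 12230 tested genes, with genes past 5% FDR in red (higher) and blue (lower). The cloud is close to even around 0, with 3171 higher and 3218 lower genes, and the named genes stand at its edges.

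Genes with the largest increases were taken where the groups did not overlap and the higher group reached 10 RPKM. For these genes, and for the decreases taken by the same rule, the lack of overlap was set by the choice, also where it is repeated below. RPKM is the deposited level per gene length and depth. Predicted genes were passed over, and Mest, an imprinted gene of the mesoderm, led the rest. Mest met the level through DM-AA alone, with 0.769 RPKM in GM-AA and 13.7 RPKM in DM-AA. So did the genes that follow, other than Lrrc17 and Ogn, which reached 10 RPKM in both groups. Mest stood at 3.71, 3.37 and 2.94 CPM in the GM-AA libraries and 53.5, 52.3 and 68.8 CPM in the DM-AA libraries. Its log2 fold change was 4.12 ± 0.14. It was followed by Myog, the gene of myogenin, and by Daam2, a formin of the Wnt pathway, which went from 12.3 ± 0.708 to 104 ± 2.49 CPM. Actc1 (cardiac actin, expressed early in muscle differentiation), Car3 (a carbonic anhydrase of slow muscle), Lrrc17 (a secreted leucine-rich repeat protein), Tgm2 (tissue transglutaminase), Cd200 (a surface glycoprotein), C1qtnf3 (a secreted C1q-like protein), Mycl (a relative of Myc), Ogn (osteoglycin, a small proteoglycan) and Txnip came next, with log2 fold changes between 2.33 for Txnip and 2.78 for Actc1. Txnip encodes a thioredoxin-binding protein that restrains glucose uptake, and it went from 18.2 ± 2.31 to 91.5 ± 6.41 CPM.

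The largest decrease by the same rule was that of Tpsab1, a tryptase gene known from mast cells. Its levels were 41.1, 39.9 and 37.3 CPM in the GM-AA libraries and 1.84, 1.35 and 1.67 CPM in the DM-AA libraries. Sprr1a, a small proline-rich protein of squamous epithelia and of stressed cells, fell from 65.4 ± 5.51 to 3.94 ± 0.909 CPM. Then came Cck (the peptide hormone cholecystokinin), Anxa8 (an annexin), Grem1 (gremlin, a secreted BMP antagonist), Apln (the peptide apelin), Cebpd (a C/EBP transcription factor), Id1, Aldh1l2 (a mitochondrial folate enzyme), Csf2rb (a cytokine receptor subunit), Id3 and Hk2 (hexokinase). Their log2 fold changes ran from -2.76 for Cck to -2.05 for Hk2, and Grem1 was the most abundant per length, going from 303 to 51.1 RPKM. Grem1, Id1 and Id3 reached 10 RPKM in both groups, and the other decreases named by this rule met the level through GM-AA alone.

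Among genes changed at least 2-fold, those with the highest levels per length were H19, Igfbp5, Islr, Cd82, Tmem123 and Lrrc17 on the higher side and Mt1, Mt2, Lgals3, Pdpn, Grem1 and Timp1 on the lower side. H19 is an imprinted noncoding RNA made next to Igf2, and it rose from 441 to 1300.2 RPKM. Islr encodes a secreted immunoglobulin-like protein of mesenchymal cells and rose from 154 ± 15.05 to 548 ± 44.2 CPM. Cd82 encodes a tetraspanin of the muscle cell surface and went from 181 ± 7.98 to 423 ± 25.1 CPM. Mt1 and Mt2 encode metallothioneins, small metal-binding proteins, and fell by 1.28 and 1.34 on the log2 scale. Lgals3 (galectin-3) fell from 1010.5 ± 96.8 to 454 ± 13.1 CPM and Pdpn (podoplanin, a surface mucin) from 846 ± 43.5 to 241 ± 13.2 CPM.

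Myogenic regulators were higher in DM-AA more often than lower. Of the 15 tested genes, 9 rose and 1 fell, with a median log2 fold change of 0.35 against 0.0058 over all genes. Myog carried the largest change of the list, with 12.4, 15.3 and 17.4 CPM in the GM-AA libraries and 122, 139 and 144 CPM in the DM-AA libraries. The lowest DM-AA library stood well above the highest GM-AA library, and the log2 fold change was 3.17 ± 0.085 (edgeR adjusted p 4.98e-25). Mef2a, a MADS-box factor that acts with the myogenic factors, rose from 65.2 ± 6.32 to 139.6 ± 8.38 CPM. Tcf4 and Tcf12 encode E proteins, the dimer partners of myogenic factors, and rose by 1.01 and 0.67 on the log2 scale. Six4, a homeobox factor that acts upstream of the myogenic genes, rose by 0.66. Its cofactor Eya1 was the member that fell, with a log2 fold change of -0.75 ± 0.094.

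The 2 factors that mark the myoblast itself did not pass the threshold. Myod1 stood at 165, 184 and 186 CPM in the GM-AA libraries and 172, 173 and 171 CPM in the DM-AA libraries, and the groups overlapped (log2 fold change -0.049 ± 0.050, edgeR adjusted p 0.436). Myf5 stood at 63.1, 64.6 and 76.1 CPM in the GM-AA libraries and 65.2, 72.01 and 74.4 CPM in the DM-AA libraries, again with overlap and with an adjusted p of 0.512 in edgeR's test. Mef2c, a target of myogenin, was low in both groups (3.65 to 3.89 CPM, adjusted p 0.754 in edgeR's test). Pax7, the factor of satellite cells, rose from 24.3 ± 0.573 to 39.4 ± 3.65 CPM.

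Id1, Id2 and Id3 fell, while 3 Notch receptors, a Notch ligand and a Notch target rose. Of the 17 tested Notch and Id genes, 8 rose and 5 fell, so members other than Id1, Id2 and Id3, not named here, fell as well. Id1 stood at 178, 165 and 159 CPM in the GM-AA libraries and 35.7, 36.01 and 34.6 CPM in the DM-AA libraries, a log2 fold change of -2.24 ± 0.065, and its groups lay far apart. Id3 fell by 2.13 and Id2 by 1.44 on the log2 scale, from 182 to 41.6 CPM and from 61.3 to 22.6 CPM. Heyl, a transcriptional repressor switched on by Notch, had 3, 5 and 5 reads in the GM-AA libraries and 328, 365 and 386 reads in the DM-AA libraries. It was almost at the floor in GM-AA, so its log2 fold change of 6.41 ± 0.18 is large and rests on few GM-AA reads. The Notch ligand Dll1 went from 34, 26 and 45 reads to 285, 317 and 346 reads. The receptors Notch3, Notch1 and Notch2 rose by 1.47, 0.67 and 0.32, and Notch3 went from 142 ± 13.04 to 392 ± 13.9 CPM. Hes6, a Hes relative that is known to favour myogenic differentiation, rose by 0.58.

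**Figure D2:**
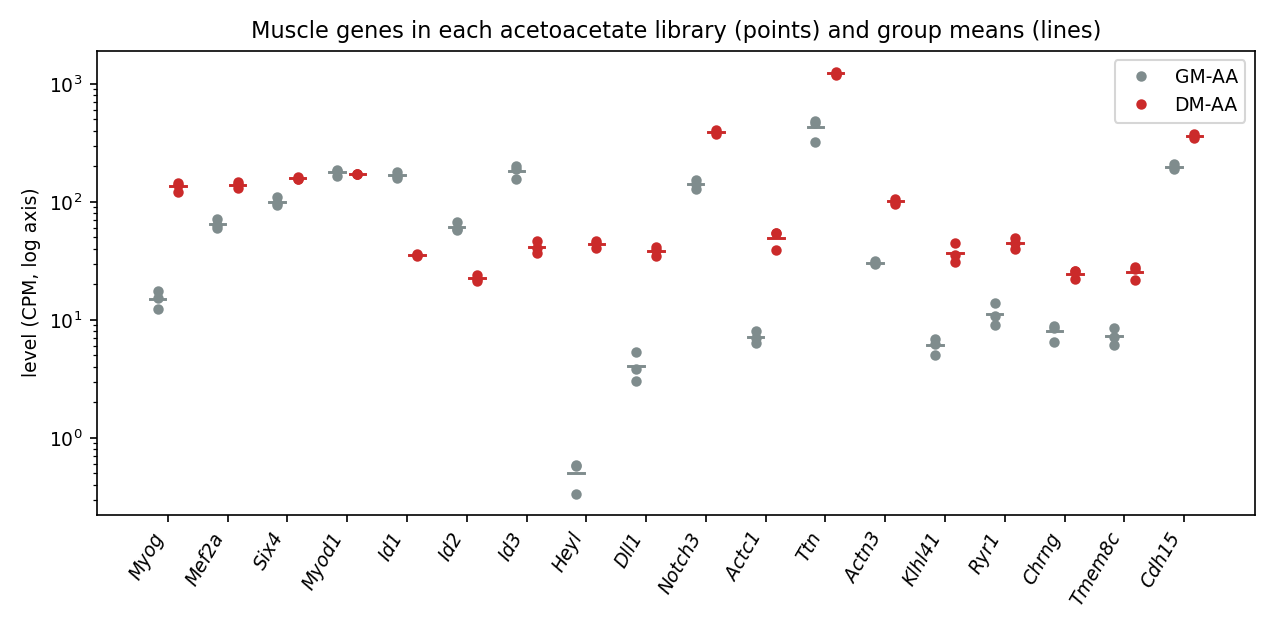
Level in CPM on a log axis of 18 muscle, Id and Notch genes in each of the 3 GM-AA libraries (grey points) and 3 DM-AA libraries (red points), with lines at the group means. The groups are apart for each gene shown other than Myod1, for which they overlap.

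Sarcomere and contractile genes had the highest median of the lists, 0.87 on the log2 scale, with 19 of 30 tested genes higher and 2 lower. Actc1 stood at 7.09, 6.39 and 8.01 CPM in the GM-AA libraries and 39.4, 54.01 and 54.7 CPM in the DM-AA libraries. The groups did not overlap and the log2 fold change was 2.78 ± 0.12. Ttn, the giant spring protein titin, stood at 324, 469.5 and 489 CPM in the GM-AA libraries. In the DM-AA libraries it stood at 1192, 1221 and 1265 CPM (log2 fold change 1.52 ± 0.096). Per gene length, its group means were 2.61 RPKM in GM-AA and 7.65 RPKM in DM-AA. Actn3, the alpha-actinin of fast fibres, went from 30.4 ± 0.944 to 101 ± 4.44 CPM, and Neb, the thin filament ruler nebulin, from 8.94 ± 0.728 to 20.4 ± 1.27 CPM. Smyd1, a methyltransferase needed for sarcomere assembly, rose by 1.77 ± 0.13, and Tpm2, a tropomyosin, by 0.52 ± 0.050. With the stricter filter of at least 5 CPM, fewer of these genes were tested and 11 were called higher.

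Other contractile genes did not pass the threshold or fell. Myh3, the embryonic myosin heavy chain, stood at 10.9, 13.4 and 15.8 CPM in the GM-AA libraries and 10.6, 14.3 and 14.7 CPM in the DM-AA libraries, with overlapping groups and an adjusted p of 0.952 in edgeR's test. The adult and neonatal heavy chains Myh2, Myh4 and Myh8 had at most 2 reads in any of the 6 libraries. Ckm, the muscle creatine kinase, stood at 2.09 to 2.56 CPM (adjusted p 0.478 in edgeR's test). Mylk2, the skeletal myosin light chain kinase, fell from 35.97 ± 3.25 to 10.2 ± 0.518 CPM (log2 fold change -1.82 ± 0.10). Acta1, the skeletal alpha-actin, stood at 53.3, 58.2 and 68.2 CPM in the GM-AA libraries and 35.7, 51.9 and 55.98 CPM in the DM-AA libraries, a log2 fold change of -0.32 ± 0.098. That call, with an edgeR adjusted p of 0.00636, was lost with DESeq2 (0.0997), without DM-AA replicate 1 (0.140) and without GM-AA replicate 3 (0.0873). Without either of these 2 libraries, 1 gene of the list was called lower.

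The Z-disc and costamere list, which covers the proteins that anchor thin filaments and link them to the membrane, had 11 genes higher and 3 lower of 15. Klhl41 and Klhl40, kelch proteins that stabilise nebulin and other sarcomere proteins, rose by 2.60 ± 0.14 and 2.44 ± 0.16, with Klhl41 at 6.30, 4.996 and 6.95 CPM in the GM-AA libraries and 30.8, 35.3 and 44.9 CPM in the DM-AA libraries. Every DM-AA library lay far above the GM-AA libraries. Pdlim3 and Synpo2l, PDZ proteins of the Z-disc, rose from 36.6 to 110.4 CPM and from 43.3 to 103 CPM. Flnc, the muscle filamin, rose by 0.47 ± 0.054. Ankrd1, a stretch-responsive ankyrin repeat protein and a target of YAP, fell from 286 ± 8.68 to 176 ± 13.97 CPM, and Sgcd, delta-sarcoglycan, fell by 0.71 on the log2 scale.

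Of 16 tested genes of excitation-contraction coupling, 11 rose, 5 fell and none stayed below the threshold. The calcium release channels of the sarcoplasmic reticulum rose, with Ryr1 at 9.11, 10.7 and 14.01 CPM in the GM-AA libraries and 39.8, 49.8 and 44.5 CPM in the DM-AA libraries (log2 fold change 1.99 ± 0.12) and Ryr3 from 24.5 ± 0.420 to 90.2 ± 8.73 CPM. Atp2a1, the calcium pump of fast muscle, rose from 5.50 ± 0.732 to 16.8 ± 1.85 CPM, whereas Atp2a2, the pump of slow muscle and of other cells, fell from 477 ± 8.83 to 342 ± 1.06 CPM. The inositol trisphosphate receptor Itpr3, which is not specific to muscle, fell by 0.93, and Jph1, a junctophilin of the triad, by 0.73. Hrc, a histidine-rich calcium-binding protein, rose by 2.04 ± 0.17, Cacng1, a subunit of the muscle calcium channel, by 0.48 ± 0.050, and Jsrp1, a triad protein, by 0.81 ± 0.12.

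The nicotinic acetylcholine receptor and postsynaptic list had 7 genes higher and 2 lower of 10. Chrng, the fetal gamma subunit, stood at 6.53, 8.48 and 8.95 CPM in the GM-AA libraries and 22.3, 25.8 and 25.96 CPM in the DM-AA libraries (log2 fold change 1.63 ± 0.12), and its groups did not overlap. Chrnb1 rose by 0.82 ± 0.054, and Chrna1, already high in GM-AA, went from 551 ± 16.4 to 675 ± 31.98 CPM. The receptor tyrosine kinase Musk and its coreceptor Lrp4 rose by 0.86 and 0.95, and the MuSK adaptor Dok7 went from 2.26 ± 0.871 to 8.95 ± 1.43 CPM. Rapsn, the scaffold that clusters the receptors, fell by 0.33. The count of lower genes was 1 without DM-AA replicate 3, GM-AA replicate 2 or GM-AA replicate 3.

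Fusion and adhesion genes as a list were called about as often as all genes, with 6 higher and 7 lower of 21 and a median of -0.016. The 2 membrane proteins that drive fusion were both higher. Tmem8c (myomaker) stood at 6.08, 7.20 and 8.60 CPM in the GM-AA libraries and 21.9, 27.9 and 27.03 CPM in the DM-AA libraries (log2 fold change 1.81 ± 0.13). Gm7325 (myomixer) had 3, 2 and 6 reads in the GM-AA libraries and 62, 80 and 87 in the DM-AA libraries. Both were low in GM-AA, and no DM-AA library overlapped them. Cdh15, M-cadherin, rose from 198 ± 10.1 to 361 ± 12.7 CPM. Adam12, a metalloprotease of fusing myoblasts, fell from 56.1 ± 3.92 to 23.02 ± 0.591 CPM, and Itgb1, Jam2 and Elmo2 fell by 0.37, 0.21 and 0.57. Without DM-AA replicate 3 or GM-AA replicate 2, 4 genes of this list were called lower.

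**Figure D3:**
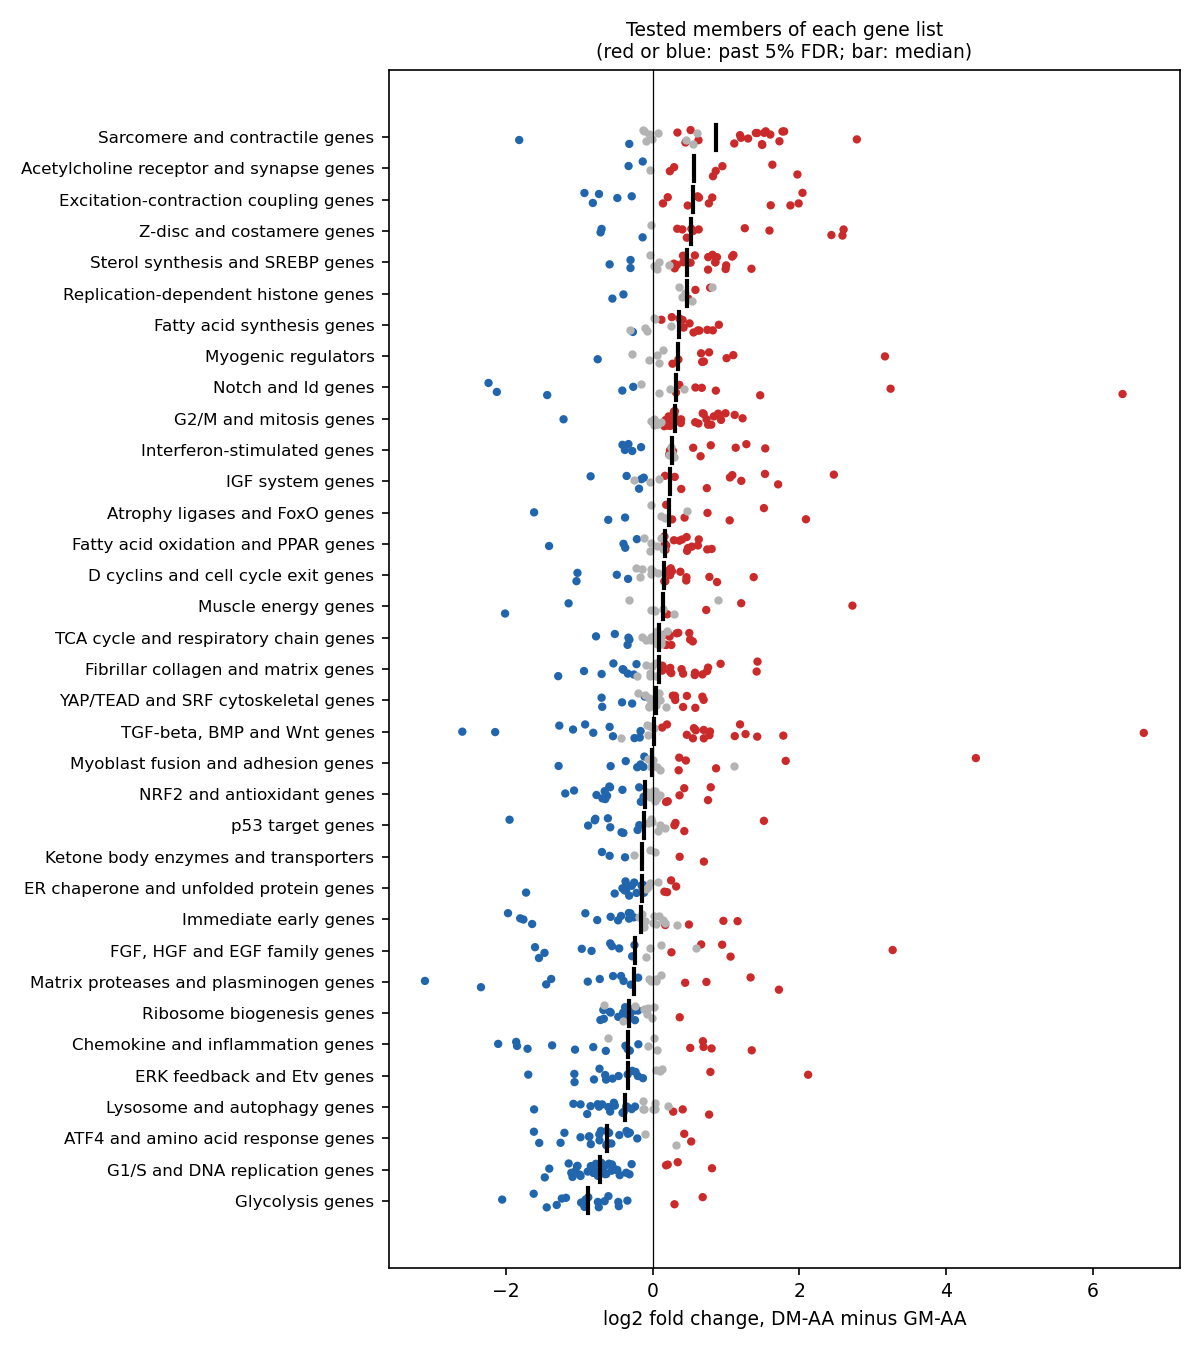
Log2 fold change of DM-AA over GM-AA for each tested member of the gene lists, 1 row per list ordered by the list's median (black bar), with members past 5% FDR in red (higher) or blue (lower) and the rest in grey. Sarcomere genes have the highest median (0.87) and glycolysis genes the lowest (-0.88).

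The cell cycle lists moved in opposite directions. Of 42 genes of the G1/S transition and DNA replication, 38 fell and 4 rose, with a median of -0.72. Of 36 genes of G2/M and mitosis, 28 rose, 1 fell and 7 did not pass the threshold, with a median of 0.30. Over all genes, 26.3% fell and 25.9% rose. Over all alternatives tried, 37 to 38 of the G1/S genes were called lower and 27 to 29 of the G2/M genes higher.

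In the G1/S list, Rrm2, a subunit of ribonucleotide reductase, stood at 513, 489 and 486 CPM in the GM-AA libraries and 250.3, 229 and 236 CPM in the DM-AA libraries. Its DM-AA libraries all lay below its GM-AA libraries, a log2 fold change of -1.06 ± 0.047. The transcription factor E2f1 fell from 103 ± 4.69 to 46.4 ± 2.06 CPM. Mcm2 and Mcm3, parts of the replicative helicase, fell by 0.89 and 0.98, Fen1, the flap endonuclease of lagging strand synthesis, by 0.80, and Uhrf1, which carries DNA methylation through replication, by 0.78. The 2 members named on the other side were E2f2, which rose from 52.4 ± 1.64 to 91.7 ± 4.63 CPM, and Ccna2 (cyclin A2), which rose by 0.34 ± 0.048. Without DM-AA replicate 2, the count of higher genes was 2 instead of 4.

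In the G2/M list, Cdc20, the activator of the anaphase-promoting complex, stood at 40.5, 36.7 and 44.6 CPM in the GM-AA libraries and 94.7, 103 and 87.8 CPM in the DM-AA libraries. The groups were apart and the log2 fold change was 1.23 ± 0.071. Ccnb2 (cyclin B2) rose from 29.1 ± 1.53 to 63.1 ± 4.32 CPM, Kif20a, a kinesin of cytokinesis, from 56.97 ± 4.76 to 109 ± 4.25 CPM, and Ube2c, the ubiquitin-conjugating enzyme of the anaphase-promoting complex, from 67.02 ± 4.76 to 124 ± 6.55 CPM. The kinetochore genes Cenpe and Cenpf rose by 0.69 ± 0.050 and 0.68 ± 0.049. Mki67, the gene of the proliferation antigen Ki-67, stood at 763, 863 and 851 CPM in the GM-AA libraries and 973, 907 and 962 CPM in the DM-AA libraries, a small rise of 0.20 ± 0.056. Mybl2, a factor that is made in late G1 and acts on G2/M genes, was the member that fell, from 39.2 ± 3.01 to 16.9 ± 0.332 CPM.

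**Figure D4:**
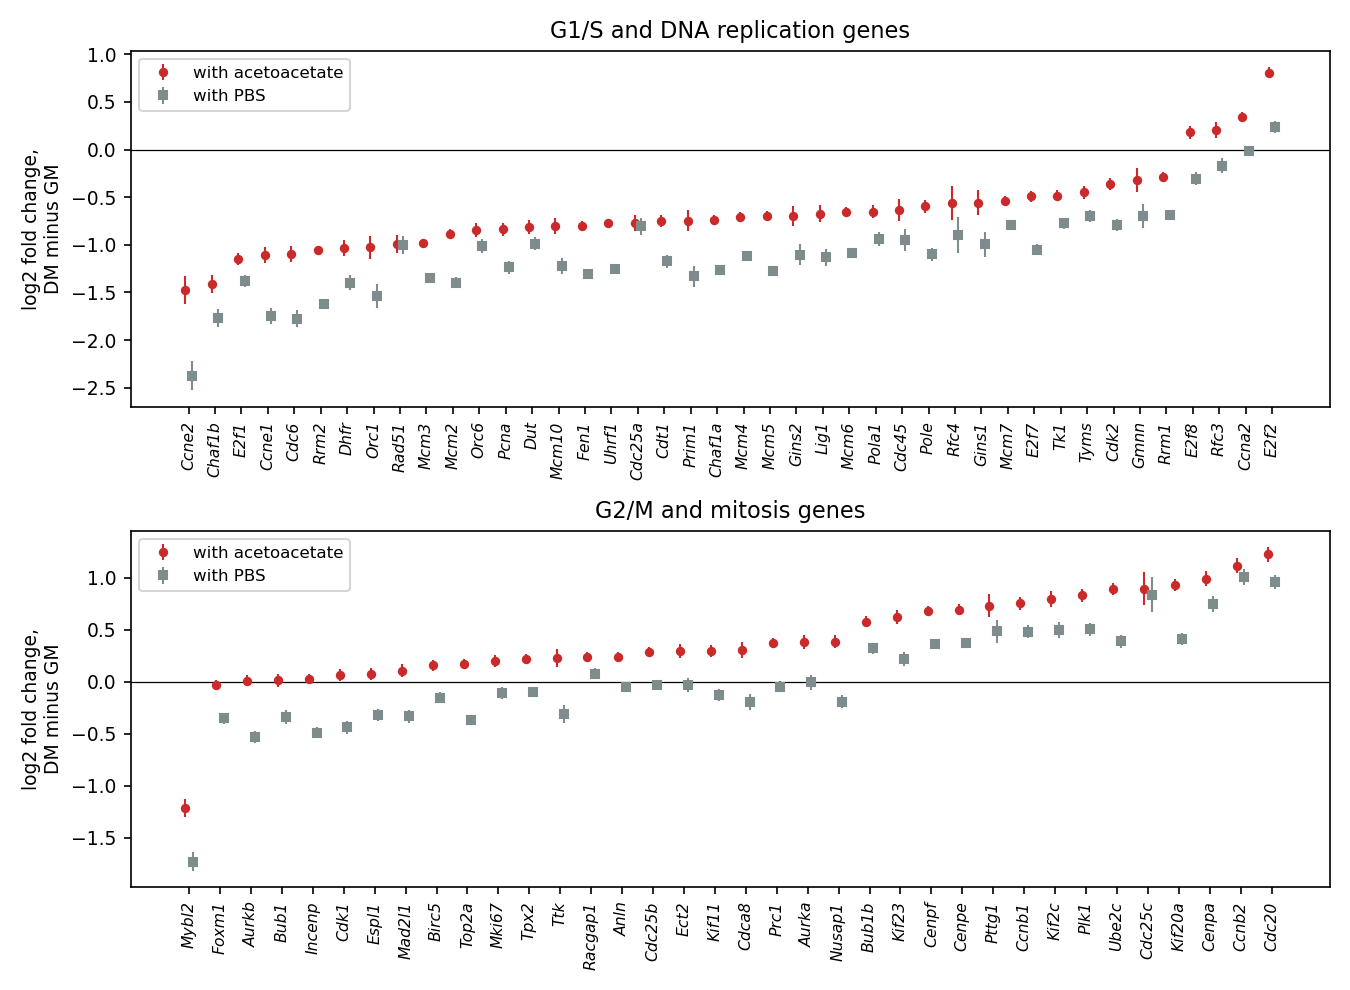
Log2 fold change of DM over GM with its standard error for each tested G1/S gene (upper panel) and G2/M gene (lower panel), with AA (red circles) and with PBS (grey squares), ordered by the value with AA. With AA, 38 of 42 G1/S genes lie below 0 and past 5% FDR, and 28 of 36 G2/M genes above 0.

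Promoter sequences are shown because the mitotic genes rose together and many of them are known to carry CCAAT boxes, bound by NF-Y, and the CHR element TTTGAA, bound by the DREAM and MuvB complexes. The 250 bases before the annotated start, from RefSeq on GRCm38.p6, were searched on both strands. CCAAT was present in 78.1% of the G2/M promoters (25 of 32, from 30 matched genes), in 64.1% of the G1/S promoters (25 of 39, from 33 matched genes) in 33.9% of all 32850 promoters in the table and in 35.3% of the 12224 promoters of tested genes. TTTGAA was present in 37.5% of the G2/M, 12.8% of the G1/S, 16% of all and 10.4% of the tested genes' promoters. The E2F-like element TTTNGCGC was present in 6.25% of the G2/M, 17.9% of the G1/S, 1.13% of all and 2.03% of the tested genes' promoters. Windows of Ccnb1 (chr13:100786487-100786736, minus strand) and Cdc20 (chr4:118437344-118437593, minus strand) are given 5′ to 3′ with CCAAT and TTTGAA in capitals.
Ccnb1: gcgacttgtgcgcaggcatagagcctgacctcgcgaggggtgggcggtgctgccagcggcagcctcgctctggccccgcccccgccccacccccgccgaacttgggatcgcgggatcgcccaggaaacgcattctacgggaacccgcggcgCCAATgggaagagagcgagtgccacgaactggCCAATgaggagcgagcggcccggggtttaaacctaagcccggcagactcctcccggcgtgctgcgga
Cdc20: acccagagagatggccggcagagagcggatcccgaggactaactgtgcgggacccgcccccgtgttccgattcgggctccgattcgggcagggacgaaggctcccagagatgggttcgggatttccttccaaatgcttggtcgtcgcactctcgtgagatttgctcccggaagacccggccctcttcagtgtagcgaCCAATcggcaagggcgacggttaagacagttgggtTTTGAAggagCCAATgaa
The Ccnb1 window held 2 CCAAT boxes, and the Cdc20 window held 2 CCAAT boxes and 1 TTTGAA between them. Ccnb1, cyclin B1, rose by 0.76 ± 0.060. CAGCTG, a form of the E-box that myogenic factors bind, was present in 38.5% of the 26 sarcomere promoters. Of the smaller muscle lists, 25% of 16 Z-disc, 36.4% of 11 excitation-contraction and 33.3% of 9 acetylcholine receptor promoters held it. The share of CAGCTG was 13% of all promoters and 12.3% of those of tested genes. It is shown in capitals in the window of Chrna1 (chr2:73580339-73580588, minus strand).
Chrna1: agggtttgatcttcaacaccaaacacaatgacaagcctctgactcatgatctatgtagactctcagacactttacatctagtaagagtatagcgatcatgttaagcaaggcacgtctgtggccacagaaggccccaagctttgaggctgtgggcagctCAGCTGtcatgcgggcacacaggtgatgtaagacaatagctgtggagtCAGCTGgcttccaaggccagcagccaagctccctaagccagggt
The Chrna1 window held 2 such E-boxes, and the window of Myog held none of the 4 motifs. Other forms of the E-box were not searched for. A match is a description of letters and does not show binding.

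D-type cyclins and genes of cell cycle exit were mixed, with 12 higher and 4 lower of 23. Ccnd1, cyclin D1, which growth factors induce in G1, stood at 389.9, 391 and 405 CPM in the GM-AA libraries and 207, 192 and 183 CPM in the DM-AA libraries. All DM-AA libraries were below all GM-AA libraries, and the log2 fold change was -1.03 ± 0.049. Ccnd2 fell by 1.04, whereas Ccnd3, the D cyclin of differentiating muscle, rose by 0.23 ± 0.053. The Cdk inhibitor Cdkn1a (p21), which rises when myoblasts leave the cycle, stood at 562, 502 and 578 CPM in the GM-AA libraries and 534, 538 and 550.2 CPM in the DM-AA libraries, with overlap between groups and an adjusted p of 0.782 in edgeR's test. Cdkn1c (p57) rose from 2.27 ± 0.154 to 5.92 ± 0.555 CPM. Rb1, the retinoblastoma gene, rose by 0.46 ± 0.083 and its relative Rbl2 by 0.46 ± 0.059, whereas Rbl1 (p107), itself an E2F target, fell by 0.49. Gas1, a growth arrest gene, rose from 219 ± 27.2 to 373 ± 27.9 CPM, and Gadd45a by 0.88 ± 0.077.

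Growth factor response genes were lower more often than higher. Of 19 genes of ERK feedback and its Etv targets, 14 fell and 2 rose (median -0.34), and of 29 immediate early genes, 14 fell and 4 rose. Dusp4, an ERK phosphatase, stood at 175, 174 and 189 CPM in the GM-AA libraries and 86.2, 83.3 and 87.3 CPM in the DM-AA libraries, without overlap. Hmga2, a chromatin protein of undifferentiated cells, fell from 285 ± 22.1 to 87.7 ± 5.28 CPM, and Etv4, Epha2 and Spry4 fell by 0.64, 0.55 and 0.73. Spry1 and Spry2, inhibitors of receptor tyrosine kinase signalling, were the 2 that rose, from 2.69 to 11.7 CPM and from 71.3 to 123 CPM.

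Among immediate early genes, Ctgf, a matricellular target of YAP and TGF-beta, went from 456 ± 36.998 to 116 ± 8.11 CPM, and Ier3, Maff, Fosl1 and Fosl2 fell by 1.81, 1.65, 1.76 and 0.57. Egr1 went the other way, at 154, 159 and 163 CPM in the GM-AA libraries and 321, 315 and 293 CPM in the DM-AA libraries (log2 fold change 0.96 ± 0.053). Its DM-AA libraries were all above its GM-AA libraries, and its relative Egr3 rose by 1.16 ± 0.14. Myc fell by 0.47, and Fos was low and did not pass the threshold (10.1 to 8.83 CPM, adjusted p 0.223 in edgeR's test).

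Of 19 tested genes of the FGF, HGF, EGF and PDGF families and their receptors, 5 rose and 10 fell. The EGF family ligands Ereg and Areg fell by 1.48 and 1.61, and Fgf7 and Hgf by 0.97 and 0.46. Hbegf, an EGF family ligand counted among the immediate early genes, fell by 0.76. Fgfr1, the receptor of dividing myoblasts, fell from 386 ± 8.40 to 263 ± 15.996 CPM, whereas Fgfr4, a receptor of differentiating muscle, stood at 3.26, 3.49 and 3.53 CPM in the GM-AA libraries and 28.4, 32.9 and 38.3 CPM in the DM-AA libraries. Fgfr4 was low in each GM-AA library and far higher in each DM-AA library. The PDGF receptors Pdgfra and Pdgfrb rose by 1.06 ± 0.070 and 0.66 ± 0.048, and the ligand Pdgfa fell by 0.58.

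The insulin-like growth factor list had 10 genes higher and 5 lower of 18 (median 0.23). Igfbp5, the main IGF-binding protein of differentiating myoblasts, stood at 1675, 1783 and 1928 CPM in the GM-AA libraries and 4039.6, 4227 and 4174 CPM in the DM-AA libraries (log2 fold change 1.21 ± 0.046). H19 stood at 1629.6, 1759.8 and 2029 CPM in the GM-AA libraries and 4543, 5536 and 5581 CPM in the DM-AA libraries. For both, each DM-AA library exceeded each GM-AA library. Igf2, an autocrine growth factor of differentiation, rose from 6.70 ± 0.384 to 14.2 ± 0.723 CPM, and Igfbp3 and Igfbp4 by 1.71 ± 0.16 and 1.05 ± 0.072. Igf1 had 3, 4 and 2 reads in the GM-AA libraries and 20, 10 and 19 in the DM-AA libraries. Irs1, the adaptor of the insulin and IGF receptors, rose from 429 ± 27.2 to 716 ± 31.4 CPM. Igf2bp2, an RNA-binding protein of proliferating myoblasts, fell by 0.85, and Igfbp2 by 0.36. Without DM-AA replicate 2, 3 genes of the list were called lower instead of 5.

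The atrophy and FoxO list had 7 genes higher and 3 lower of 14. Fbxo32, the muscle ubiquitin ligase atrogin-1, rose from 145 ± 4.17 to 196 ± 4.005 CPM. Sesn1 and Sesn3, sestrins that restrain mTORC1, rose from 39.99 to 114 CPM and from 8.30 to 35.4 CPM, and the transcription factor Foxo4 rose by 0.75 ± 0.074. Foxo1 fell by 0.38, and Eif4ebp1, the translation repressor 4E-BP1, by 0.61.

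Glycolysis had the lowest median of the lists, -0.88, with 17 of 19 tested genes lower and 2 higher. Hk2, the inducible hexokinase, stood at 334, 326 and 314 CPM in the GM-AA libraries and 80.3, 77.5 and 77.03 CPM in the DM-AA libraries. Each GM-AA library was far above any DM-AA library, a log2 fold change of -2.05 ± 0.054. Slc2a1, the glucose transporter GLUT1, stood at 675, 621 and 589.7 CPM in the GM-AA libraries and 253, 225 and 214 CPM in the DM-AA libraries, again without overlap (log2 fold change -1.45 ± 0.056). Ldha, the lactate dehydrogenase subunit that favours lactate, fell from 2728 ± 155 to 1445 ± 15.5 CPM, and Slc16a3, the lactate exporter MCT4, from 237 ± 6.90 to 104 ± 7.67 CPM. Tpi1, triose phosphate isomerase, fell by 0.88, Pgk1, phosphoglycerate kinase, by 0.93, and Pdk1, which blocks entry of pyruvate into the TCA cycle, by 1.24. Ldhb, the other lactate dehydrogenase subunit, was higher, at 6.86, 7.67 and 7.54 CPM in the GM-AA libraries and 9.95, 13.6 and 11.8 CPM in the DM-AA libraries (log2 fold change 0.68 ± 0.14). Without DM-AA replicate 1 or GM-AA replicate 1, 1 gene of the list was called higher.

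Of 33 genes of the TCA cycle and the respiratory chain, 11 were higher and 5 lower, beside 25.9% and 26.3% of all genes. Their median was 0.088, against 0.0058 over all genes. Pdha1, a subunit of pyruvate dehydrogenase, rose by 0.50 ± 0.044, Idh2 by 0.55 ± 0.051 and Atp5b, a subunit of ATP synthase, by 0.22 ± 0.042. Idh3a fell by 0.52 and Ogdh by 0.33. Of 25 genes of fatty acid oxidation and PPAR targets, 15 rose and 4 fell. Acadm and Acads, acyl-CoA dehydrogenases, rose by 0.53 ± 0.064 and 0.48 ± 0.074, and Ucp2, a mitochondrial carrier, rose from 34.6 ± 2.63 to 60.5 ± 3.05 CPM. Pdk4 rose by 0.74 ± 0.075, in contrast to Pdk1, and Pparg fell from 9.32 ± 0.604 to 3.48 ± 0.389 CPM.

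Of the 8 tested genes of ketone body use and transport, 2 rose and 3 fell, for so few genes not far from the shares over all genes (25.9% and 26.3%). Oxct1, the enzyme that activates AA to acetoacetyl-CoA in tissues that use ketones, stood at 306, 298 and 274 CPM in the GM-AA libraries and 224, 216 and 235 CPM in the DM-AA libraries. The groups did not overlap, and the log2 fold change was -0.38 ± 0.050. Slc16a1, the monocarboxylate transporter MCT1 that carries ketone bodies and lactate, stood at 307, 291 and 291 CPM in the GM-AA libraries and 195, 197 and 199 CPM in the DM-AA libraries and fell by 0.59. Acat1, which splits acetoacetyl-CoA, overlapped between the groups (53.02 to 54.2 CPM, adjusted p 0.706 in edgeR's test). Aacs, the cytosolic synthetase that feeds AA into lipid synthesis, rose from 68.3 ± 3.66 to 88.1 ± 2.95 CPM. Without DM-AA replicate 2 or GM-AA replicate 1, 1 gene of this list was called higher.

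Genes of sterol and fatty acid synthesis were higher more often than lower. Of 27 tested genes of sterol synthesis and its SREBP control, 19 rose and 3 fell (median 0.47), and of 19 genes of fatty acid synthesis 12 rose and 1 fell (median 0.36). Cyp51, the lanosterol demethylase of cholesterol synthesis, stood at 199, 181 and 203 CPM in the GM-AA libraries and 389, 428 and 433 CPM in the DM-AA libraries (log2 fold change 1.10 ± 0.054), with no overlap. Fdft1, squalene synthase, rose by 1.08 ± 0.053, and Insig1, the sterol-regulated retention factor of SREBP, rose from 48.4 ± 3.93 to 96.5 ± 11.2 CPM. Insig2, its counterpart that sterols do not regulate in this way, fell by 0.59. In the fatty acid branch, Fasn, fatty acid synthase, stood at 531, 584 and 586 CPM in the GM-AA libraries and 902, 901 and 840.0 CPM in the DM-AA libraries, Scd1 and Elovl6 rose by 0.56 ± 0.043 and 0.62 ± 0.051, and Acly, which supplies cytosolic acetyl-CoA, rose by 0.50 ± 0.049. The single lower call of the fatty acid list was absent without DM-AA replicate 1, and 2 genes were called lower without GM-AA replicate 2.

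**Figure D5:**
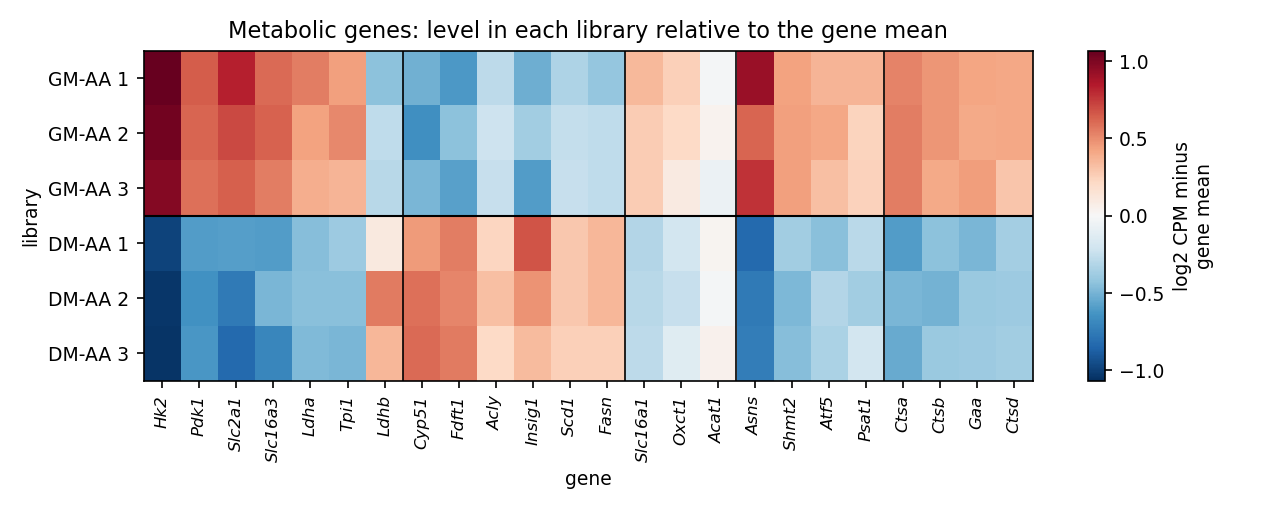
Colour scale of log2 CPM minus the gene's mean over the 6 libraries for 24 metabolic genes (columns) in the 3 GM-AA and 3 DM-AA libraries (rows), in blocks of glycolysis, lipid synthesis, ketone use, amino acid response and lysosome genes. Glycolysis genes other than Ldhb are higher in GM-AA, lipid synthesis genes are higher in DM-AA, and Acat1 is even.

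Of 13 tested muscle energy genes, 4 rose and 2 fell, beside 25.9% and 26.3% of all genes. Car3 stood at 13.6, 14.9 and 18.1 CPM in the GM-AA libraries and 87.2, 111 and 109 CPM in the DM-AA libraries (log2 fold change 2.72 ± 0.094), and Ckb, the brain-type creatine kinase of myoblasts, rose from 50.2 ± 1.12 to 83.2 ± 3.86 CPM. Eno3, the muscle enolase, rose by 0.20 ± 0.049. Gys1, glycogen synthase, fell from 224 ± 10.000 to 101 ± 6.69 CPM, and Fabp3, a fatty acid-binding protein, from 3.17 ± 0.858 to 0.772 ± 0.289 CPM.

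Genes of amino acid supply and stress were lower more often than higher. Of 25 genes of the ATF4 and amino acid response, 21 fell and 2 rose (median -0.63). Asns, asparagine synthetase, stood at 75.7, 61.6 and 68.3 CPM in the GM-AA libraries and 22.5, 23.8 and 24.04 CPM in the DM-AA libraries (log2 fold change -1.55 ± 0.082), and the GM-AA libraries were all above the DM-AA libraries. Shmt2 and Aldh1l2 of mitochondrial folate metabolism fell by 0.87 and 2.16, Psat1 of serine synthesis by 0.56, the arginine transporter Slc7a1 by 0.73 and the factor Atf5 by 0.73. Slc7a11, the cystine transporter, and Nupr1 were the 2 that rose, by 0.43 ± 0.062 and 0.52 ± 0.078.

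Of 23 genes of ER chaperones and the unfolded protein response, 15 fell and 4 rose. Ero1l, the oxidase that drives disulphide formation and also responds to low oxygen, fell from 138 ± 4.44 to 41.7 ± 2.45 CPM. The chaperones Hspa5, Calr, Canx and P4hb fell by 0.29, 0.39, 0.35 and 0.36. Xbp1 and Herpud1 rose by 0.20 ± 0.048 and 0.25 ± 0.067.

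Of 26 NRF2 and antioxidant genes, 13 fell and 6 rose. Hmox1, haem oxygenase, fell from 123 ± 8.12 to 53.99 ± 4.97 CPM and Nqo1 from 88.97 ± 5.58 to 42.3 ± 2.14 CPM. The glutathione peroxidases Gpx1 and Gpx3 rose by 0.75 ± 0.048 and 0.79 ± 0.088. Among 20 p53 targets, 10 fell and 4 rose. Gdf15, a stress cytokine, fell from 61.6 ± 3.84 to 15.9 ± 1.24 CPM and Mdm2, the p53 ligase, from 244 ± 25.3 to 142 ± 2.22 CPM, while Trp53inp1 rose by 0.43 ± 0.063.

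Of 24 ribosome biogenesis genes, 15 fell and 1 rose (median -0.33). Nolc1 and Nop56, nucleolar proteins of ribosome assembly, fell by 0.58 and 0.67, and the nucleolar helicase Ddx21 by 0.34. Ubtf, a factor of RNA polymerase I, was the member that rose, by 0.37 ± 0.052. Of 28 lysosome and autophagy genes, 18 fell and 3 rose (median -0.38). The lysosomal proteases Ctsb, Ctsd and Ctsa fell, with Ctsb at 1586, 1589 and 1516 CPM in the GM-AA libraries and 847, 807 and 869.5 CPM in the DM-AA libraries. The lysosomal glucosidase Gaa fell by 0.85. Bnip3, a mitophagy receptor that low oxygen also induces, fell from 179 ± 21.04 to 58.3 ± 6.72 CPM. The autophagosome genes Map1lc3a, Wipi1 and Gabarapl1 were the 3 that rose, by 0.77 ± 0.073, 0.41 ± 0.063 and 0.28 ± 0.049.

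Of 32 collagen and matrix genes, 16 rose and 9 fell, with a median of 0.084. Col6a1 and Col6a2, chains of the microfibrillar collagen VI that surrounds muscle fibres, rose, with Col6a1 at 157, 175 and 182 CPM in the GM-AA libraries and 428, 455 and 490.1 CPM in the DM-AA libraries. Col3a1 and Col1a1 rose by 0.93 ± 0.049 and 0.74 ± 0.053. Lox, the collagen crosslinking oxidase, fell from 1656 ± 70.2 to 864 ± 62.96 CPM, Has2, a hyaluronan synthase, from 119.8 ± 4.13 to 49.01 ± 1.76 CPM, and Nid1, a basement membrane linker, from 1529.8 ± 38.3 to 943 ± 44.5 CPM.

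Of 20 matrix protease and plasminogen genes, 11 fell and 4 rose. Serpinb2, an inhibitor of plasminogen activators, stood at 32.3, 33.7 and 28.6 CPM in the GM-AA libraries and 3.31, 3.55 and 4.07 CPM in the DM-AA libraries, a log2 fold change of -3.11 ± 0.14. Timp1 and Timp3, inhibitors of metalloproteases, fell by 1.45 and 1.39. The metalloproteases Mmp2, Mmp14 and Mmp9 were among those that rose, by 0.73 ± 0.056, 0.44 ± 0.043 and 1.33 ± 0.20. With the filter of at least 5 CPM, 2 genes were called higher instead of 4.

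Chemokine and inflammation genes were lower more often, with 12 of 21 lower and 5 higher (median -0.34). Ptgs2, the inducible cyclooxygenase, fell from 93.3 ± 6.26 to 28.6 ± 1.18 CPM. The chemokines Cxcl5 and Ccl7 fell from 155 to 59.8 CPM and from 55.7 to 26.7 CPM, and Nos2, the inducible nitric oxide synthase, stood at 28.7, 31.5 and 28.6 CPM in the GM-AA libraries and 7.24, 6.001 and 7.30 CPM in the DM-AA libraries. Nfkb2 and Relb, which encode NF-kB subunits, and the inhibitor Nfkbie were among the 5 that rose, by 0.51 ± 0.056, 0.69 ± 0.089 and 0.80 ± 0.094. Interferon-stimulated genes were split, with 9 higher and 5 lower of 18. Ddx58 (RIG-I) rose from 23.3 ± 0.539 to 40.4 ± 0.992 CPM and Irf1 by 0.55 ± 0.064, while B2m fell by 0.33. The lower count was 2 without GM-AA replicate 1 and 3 without DM-AA replicate 1, DM-AA replicate 2 or GM-AA replicate 2.

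Of 33 genes of TGF-beta, BMP and Wnt signalling, 16 rose and 11 fell. Tgfb2 rose from 23.4 ± 4.69 to 80.2 ± 9.93 CPM and the mediator Smad3 from 101 ± 5.58 to 244 ± 5.05 CPM. Wnt10a, a Wnt ligand, rose by 1.12 ± 0.067 and the receptor Fzd1 by 0.77 ± 0.053. The R-spondin receptor Lgr5 had 0, 1 and 0 reads in the GM-AA libraries and 31, 45 and 60 in the DM-AA libraries, whereas its relative Lgr6 fell from 10.7 ± 1.59 to 2.39 ± 0.523 CPM. Grem1, the BMP antagonist, stood at 798, 776 and 761 CPM in the GM-AA libraries and 135, 124 and 127 CPM in the DM-AA libraries (log2 fold change -2.60 ± 0.055), and Inhba, a subunit of activin, fell by 1.09. The list of YAP/TEAD and SRF cytoskeletal genes had 8 higher and 5 lower of 25, beside 25.9% and 26.3% of all genes. With the GC and length trend removed, 8 were called lower. Tead1 and Tead2, the DNA-binding partners of YAP, rose by 0.27 ± 0.048 and 0.58 ± 0.055, Acta2 and Myl9 of smooth muscle rose by 0.31 ± 0.045 and 0.68 ± 0.055, and Tagln, another gene of smooth muscle, fell by 0.69.

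Common reference genes also differed between the media. Of 16 tested housekeeping genes, 8 fell and 4 rose. Tfrc, the transferrin receptor, fell from 487 ± 9.36 to 270.3 ± 3.92 CPM, Actb by 0.28 and Hprt by 0.32. Hsp90ab1 and Rpl13a rose by 0.28 ± 0.042 and 0.33 ± 0.051.

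The switch with PBS gives the values that these changes have without AA, and the 2 switches share no library. Their difference, the log2 fold change with AA minus that with PBS, passed 5% FDR in edgeR's test for 641 of 12230 genes (5.24%), for 315 (2.58%) towards higher and for 326 (2.67%) towards lower values with AA. The median size of the difference over all genes was 0.12. The cell cycle lists held a far larger share, with 27 of 36 G2/M genes and 25 of 42 G1/S genes higher with AA. The median switch with PBS was -1.10 for G1/S genes, against -0.72 with AA, and -0.040 for G2/M genes, against 0.30 with AA.

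For Rrm2 the PBS libraries were at 505, 546 and 527 CPM in the GM-PBS libraries and 175, 168 and 168 CPM in the DM-PBS libraries, a log2 fold change of -1.62 ± 0.049. It thus fell by less with AA, with a difference of 0.57 ± 0.067. Mcm2, Fen1 and Uhrf1 had differences of 0.51 ± 0.075, 0.51 ± 0.072 and 0.47 ± 0.070. Mki67 stood at 862, 888 and 888 CPM in the GM-PBS libraries and 866, 862 and 715 CPM in the DM-PBS libraries, so it did not pass the threshold with PBS (-0.11 ± 0.056) while it rose with AA, and the difference was 0.31 ± 0.079. Without DM-PBS replicate 3 it did not pass (edgeR adjusted p 0.0558). The differences of Kif20a and Ube2c were 0.52 ± 0.087 and 0.50 ± 0.085, and their switches with PBS were 0.41 ± 0.062 and 0.39 ± 0.062. Cdc20 rose by 0.96 ± 0.069 with PBS, and its difference of 0.27 ± 0.10 did not pass (edgeR adjusted p 0.128).

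Of the 30 sarcomere genes, 6 had a switch that was higher with AA and 1 a switch that was lower. The PBS libraries of Actc1 stood at 4.55, 5.64 and 5.90 CPM in the GM-PBS libraries and 15.4, 15.4 and 16.7 CPM in the DM-PBS libraries, a rise of 1.56 ± 0.16, and the difference was 1.22 ± 0.22. The group means of Myh3, the embryonic heavy chain, were 9.04 CPM in GM-PBS, 13.4 in GM-AA, 4.49 in DM-PBS and 13.2 in DM-AA (difference 0.97 ± 0.24). Acta1, the skeletal actin, had means of 42.8 CPM in GM-PBS, 59.9 in GM-AA, 16.9 in DM-PBS and 47.9 in DM-AA (difference 1.02 ± 0.16). Thus both fell with PBS and not, or barely, with AA. Mylpf, a fast myosin light chain, had means of 3.49 CPM in GM-PBS, 5.45 in GM-AA, 3.28 in DM-PBS and 11.7 in DM-AA and a difference of 1.198 ± 0.34. That call was lost without DM-AA replicate 2 or 3, DM-PBS replicate 1 or 2, GM-AA replicate 1 or 2, or GM-PBS replicate 2 or 3, with differences of 0.96 to 1.23 and adjusted p of 0.0509 to 0.119 in edgeR's test. Mylk2 had means of 17.9 CPM in GM-PBS, 35.97 in GM-AA, 11.5 in DM-PBS and 10.2 in DM-AA, and the difference was -1.198 ± 0.16. Tmem8c, myomaker, had means of 5.25 CPM in GM-PBS, 7.29 in GM-AA, 9.16 in DM-PBS and 25.6 in DM-AA and a difference of 1.01 ± 0.23, which did not pass without GM-PBS replicate 2 (edgeR adjusted p 0.0518).

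Regulators differed as well. Myog stood at 10.2, 12.5 and 12.6 CPM in the GM-PBS libraries and 69.5, 67.6 and 73.6 CPM in the DM-PBS libraries and rose by 2.58 ± 0.097 with PBS, so the difference was 0.59 ± 0.15 (edgeR adjusted p 0.0105). Its DM-AA libraries were above its DM-PBS libraries without overlap, but the difference did not pass without GM-AA replicate 1 (0.0510) or GM-PBS replicate 3 (0.0602). Myod1 had means of 225 CPM in GM-PBS, 178 in GM-AA, 165 in DM-PBS and 172 in DM-AA and a difference of 0.40 ± 0.070. It fell with PBS, and Myf5 rose with PBS, with means of 43.6 CPM in GM-PBS, 67.9 in GM-AA, 58.6 in DM-PBS and 70.5 in DM-AA and a difference of -0.37 ± 0.099. The Myf5 value did not pass without DM-AA replicate 1 (0.0660), GM-AA replicate 3 (0.0966) or GM-PBS replicate 1 (0.0618) in edgeR's test. Id2 fell less with AA, with a difference of 0.71 ± 0.12. Cdkn1a, which fell with PBS, had a difference of 0.25 ± 0.066 that did not pass without DM-AA replicate 3 (0.0515) or GM-AA replicate 2 (0.0832).

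The largest differences towards lower values with AA were taken among genes with at least 10 RPKM in their highest group, predicted genes left out. They were those of Tpsab1, F3, Anxa8, Maf, Txnip and Ogn. Each difference compares 2 switches and can come from the GM groups, the DM groups or both. Tpsab1 had means of 17.1 CPM in GM-PBS, 39.4 in GM-AA, 1.67 in DM-PBS and 1.62 in DM-AA. Ogn had means of 27.0 CPM in GM-PBS, 50.6 in GM-AA, 277 in DM-PBS and 270 in DM-AA. Those of Anxa8 were 181 CPM in GM-PBS, 158 in GM-AA, 58.0 in DM-PBS and 24.9 in DM-AA. Txnip stood at 9.45, 9.68 and 8.42 CPM in the GM-PBS libraries and 92.02, 86.8 and 100.1 CPM in the DM-PBS libraries. With PBS it rose by 3.34 ± 0.093, and the difference was -1.005 ± 0.14. Its means with AA were 18.2 CPM in GM-AA and 91.5 CPM in DM-AA, beside 93.0 CPM in DM-PBS. F3, tissue factor, had means of 15.5 CPM in GM-PBS, 15.5 in GM-AA, 34.4 in DM-PBS and 14.996 in DM-AA, and with AA it did not pass the threshold (difference -1.19 ± 0.14). Maf, a bZIP factor, had means of 18.000 CPM in GM-PBS, 20.4 in GM-AA, 64.6 in DM-PBS and 36.2 in DM-AA (difference -1.02 ± 0.13). The difference of Tpsab1 was lost without DM-PBS replicate 1 (0.144) or DM-PBS replicate 3 (0.0522) in edgeR's test. By the same rule, the genes on the higher side were Hist1h2af, Actc1, Mylpf, Ch25h, Acta1 and Tmem8c. Ch25h, cholesterol 25-hydroxylase, had means of 9.96 CPM in GM-PBS, 8.42 in GM-AA, 19.2 in DM-PBS and 33.2 in DM-AA (difference 1.04 ± 0.16). Hist1h2af, a replication-dependent histone H2A gene, had means of 54.3 CPM in GM-PBS, 33.9 in GM-AA, 32.5 in DM-PBS and 49.1 in DM-AA (difference 1.31 ± 0.37). Its difference was lost with DESeq2 (0.464) and without DM-AA replicate 1 or 2, DM-PBS replicate 1 or 2, GM-AA replicate 2 or 3, or GM-PBS replicate 1 or 3, with edgeR adjusted p of 0.0525 to 0.168. Its switch with AA, below the threshold in the main fit, passed without DM-AA replicate 3 (edgeR adjusted p 0.00147). It also passed in edgeR's test with only the 6 AA libraries (0.0298) and without a filter on low counts (5.94e-11).

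Among matrix, sterol and chemokine genes, the differences went more often towards lower values with AA. They did so for 9 of 32 matrix genes, 7 of 27 sterol genes and 6 of 21 chemokine genes, against 2.67% over all genes. Thbs1 (thrombospondin), Postn (periostin), Nid1 and Col3a1 had differences of -0.55 ± 0.073, -0.68 ± 0.13, -0.39 ± 0.066 and -0.29 ± 0.069. Sc4mol and Acat2, enzymes of sterol synthesis, had differences of -0.46 ± 0.076 and -0.38 ± 0.076, so they rose by less with AA. The sterol count was 4 without DM-AA replicate 2, DM-PBS replicate 1 or DM-PBS replicate 2, and 3 with DESeq2 and without DM-AA replicate 3, GM-AA replicate 1, GM-PBS replicate 2 or GM-PBS replicate 3. The chemokine Cxcl5 fell by more with AA, with means of 311 CPM in GM-PBS, 155 in GM-AA, 214 in DM-PBS and 59.8 in DM-AA and a difference of -0.83 ± 0.11. Nos2 differed in the other direction, by 0.97 ± 0.23. The chemokine count was 3 with DESeq2 and without DM-AA replicate 3 or GM-AA replicate 3. By contrast, the G2/M count lay between 24 and 29 and the G1/S count between 20 and 28 in all alternatives without a fold threshold.

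Several of these genes share sequence or exons with others, and how reads with several matches or in overlapping genes were counted is not given in the sources used here. Acta1 and Actc1, the histone genes, Sprr1a and Csf2rb have near-identical relatives, so their counts are uncertain. In the GENCODE annotation, other genes cover 62.8% of the exon length of Igf2 on the same strand. On the opposite strand, other genes cover 84.2% of Fen1, 73.5% of Mt2, 57.2% of Fosl1, 30.9% of Irs1, 30.7% of Cdkn1c and 29.3% of Kif20a. They also cover 26.1% of Pdgfa, 23.1% of Mest and 21.8% of Tgm2. These are examples, and further named genes are overlapped in part. Reads of the overlapped parts cannot be assigned to one of the partners, since the strand of the library is not given.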

How the data were processed

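RNA of the 12 libraries was extracted with TRIZOL and made into libraries by a standard Illumina procedure, per the labels' protocols. The submitters' processing notes name BWA 0.5.9-r16 and the build mm9. For the counting rule, reads with several matches, strand and annotation, nothing is given in the sources used here. Per the file headers, the deposited table gives a raw read count, an RPKM value and a length for each gene. The deposited RPKM could be recomputed from counts, lengths and 1 divisor per library within 5e-04%, and all columns were matched to samples (0 unmatched).

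Counts were tested with edgeR 4.0.16 (R 4.3.3): genes kept by filterByExpr (99.9% of reads), TMM scaling, 1 quasi-likelihood model with 4 group means over the 12 libraries (8 residual degrees of freedom, common biological variation 4.08%), two-sided tests of DM-AA against GM-AA and of the difference of the switches with AA and with PBS, and Benjamini-Hochberg adjustment at 5% FDR. The standard error is the log2 fold change divided by the square root of F. CPM values carry the TMM scaling. The chi-square per degree of freedom between 2 libraries of a group was 1.99 to 2.94, where 1 is counting noise. Deviations of same-numbered GM-AA and DM-AA libraries from their group means correlated at -0.0061, -0.026 and 0.019. Those of differently numbered libraries correlated at -0.076 to 0.082. With 3 libraries a group, such values show no pairing by number and cannot exclude it. Spearman's rho of fold change with GC content was 0.035. Alternatives were other scalings, DESeq2 1.42.0, other filters, the 6 AA libraries alone, a replicate block, removal of GC and length trends, and leaving out each library. The procedure was tested on simulated data.

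Members, 42 gene lists and tests were chosen with earlier results of these data known. Named genes are (a) the 12 largest changes each way with separate groups and at least 10 RPKM, (b) up to 6 list members by p in the leading direction and 3 in the other, (c) a fixed set of muscle, cell cycle and ketone genes, (d) the 6 largest differences each way with at least 10 RPKM in the highest group, and (e) the 6 genes of highest level changed at least 2-fold each way. Predicted genes were passed over in (a) and (d), and some genes that the rules name are not reported here. Not every gene that (b) allows is named, and those with unstable calls were mostly passed over, so the examples are more stable than the lists. Igf1, Myh2, Myh4, Myh8, Thbs1, Postn, Sc4mol, Acat2, Gapdh, Ppia, Rpl10, Dmd and Hmgcs1 were chosen after their values were seen. Exon overlaps and GC content came from GENCODE M21 and promoters from RefSeq, both on GRCm38, which is not the build of the alignment, so no coordinates of the files were used.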

Additional observations from a re-analysis of the deposited data

Results flagged for a closer look

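The switch of medium with AA differed from the switch with PBS, by edgeR's test of the difference at 5% FDR, for 315 genes towards higher and 326 towards lower values with AA. Among the 276 tested genes named here, 78 had such a difference, against 5.24% over all tested genes. Some were named for the size of this difference or after their values were seen, so the count is no result about the named genes. The values of the 78, the log2 fold change with AA minus that with PBS, follow by role. Fold thresholds aside, the difference of 27 of the 78 genes did not pass under at least 1 alternative. For 14 of them this happened only where a library was left out.

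Among regulators of muscle and their partners, the difference was 0.59 for Myog, 0.40 for Myod1, -0.37 for Myf5, 0.33 for Mef2a, -0.26 for Tcf4, 0.71 for Id2 and 0.51 for Mybl2. Contractile, calcium-handling and fusion genes gave 1.22 for Actc1, 1.02 for Acta1, 0.97 for Myh3, 1.198 for Mylpf, 0.67 for Neb, 0.39 for Tpm2, 1.56 for Hrc, 1.01 for Tmem8c, -1.198 for Mylk2, -0.38 for Adam12 and -0.28 for Myl9. All but the last 3 were higher with AA.

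Of the named cell cycle genes, those on the higher side had 0.57 for Rrm2, 0.57 for E2f2, 0.52 for Kif20a, 0.51 for Mcm2, 0.51 for Fen1, 0.50 for Ube2c, 0.47 for Uhrf1, 0.39 for Rbl1, 0.38 for Ccnd3, 0.37 for Mcm3, 0.36 for Ccna2, 0.32 for Cenpe, 0.32 for Cenpf, 0.31 for Mki67 and 0.25 for Cdkn1a. Gas1, a growth arrest gene, was on the lower side at -0.33. The histone genes Hist1h2af and Hist1h1c stood at 1.31 and -0.50.

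Of the named signalling genes, those lower with AA had -0.68 for Hmga2, -0.49 for Dusp4, -0.70 for Fgf7, -0.38 for Ctgf, -0.84 for Grem1, -0.26 for Fzd1, -0.22 for Pdgfrb, -0.51 for Igfbp4 and -0.35 for Igfbp5. Egr1, Smad3, Igfbp3 and Csf2rb were higher, at 0.25, 0.24, 0.86 and 0.38. The transcription factors Cebpd and Maf had -0.87 and -1.02.

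Matrix and inflammation genes had -0.68 for Postn, -0.55 for Thbs1, -0.39 for Nid1, -0.37 for Spp1, -0.29 for Col3a1, -0.25 for Lox, -0.94 for Ogn, -0.83 for Cxcl5, 0.65 for Tgm2, 0.32 for Lrrc17 and 0.97 for Nos2, the last 3 being higher. Metabolic and lysosomal genes had -0.46 for Sc4mol, -0.38 for Acat2, -0.36 for Elovl6, -0.28 for Aacs, -1.005 for Txnip, -0.31 for Ctsd, -0.23 for Ctsa and -0.25 for Gabarapl1, and on the higher side 1.04 for Ch25h and 0.24 for P4hb. The remaining genes were Tpsab1 at -1.27, F3 at -1.19, Anxa8 at -1.03, C1qtnf3 at -0.62, Cck at -0.54 and Tubb3 at 0.30.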

How the results depend on the processing

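Over the alternatives other than a fold threshold, 5521 (DESeq2) to 6549 genes (GC and length trends removed) passed in DM-AA against GM-AA, and 472 (DESeq2) to 829 (GC and length trends removed) in the difference of the switches. With each library left out in turn, the ranges were 5778 to 5960 genes, 2852 to 2911 higher and 2926 to 3049 lower, and for the difference 456 to 645 genes, 232 to 309 higher and 224 to 341 lower. Asking for at least 2-fold left 805 genes, 442 higher and 363 lower, and for the difference 35 genes, 18 higher and 17 lower. The replicate block, which removes the mean of each replicate number, gave 6332 and 590 genes. Whether the numbers pair the libraries is not known, so it is not read as a paired test. The share of higher genes among those called was 48.0% to 54.4% over the scalings, tools, filters and corrections, with 3479 higher and 2915 lower genes for the library sizes implied by RPKM, and no scaling moved the median of all genes by more than 0.034 on the log2 scale. Over the named genes and the alternatives without a fold threshold in DM-AA against GM-AA, the call was kept or stayed absent 4666 times. It was lost 11 times (Acta1 and Tubb3) and gained 5 times (Des and Hist1h2af), and no called gene changed direction. Genes with unstable calls were mostly passed over when examples were chosen, so this tally does not measure the stability of calls in general. The depth, 8027518 reads in the smallest AA library, limits genes such as Heyl, Lgr5 and Gm7325, whose GM-AA levels rest on few reads. Tests on the 3 libraries of a group cannot show the spread between cultures.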

Other observations

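Of 10 tested replication-dependent histone genes, 3 rose and 2 fell, shares near those of all genes (25.9% and 26.3%), with a median log2 fold change of 0.46 in edgeR's fit. The linker histone gene Hist1h1c stood at 41.2, 40.2 and 40.3 CPM in the GM-AA libraries and 28.9, 27.2 and 27.03 CPM in the DM-AA libraries and fell by 0.55, and the groups did not overlap. H2afx, the histone variant that marks DNA breaks, rose from 65.8 ± 6.18 to 92.03 ± 4.09 CPM. The count of lower genes was 1 without DM-AA replicate 2 or GM-AA replicate 3. Many of these transcripts lack a poly(A) tail, and how well the libraries captured them was not tested.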
